A study of Arabidopsis thaliana with 9 samples.

Results

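The ribosomal protein genes of the *Arabidopsis* nuclear genome were followed in germinating seeds. Members were all genes whose symbol began with *RPL*, *RPS* or *RPP* and a digit and whose identifier was not from the chloroplast or mitochondrial genome, which gave 278 of the 32830 genes in the count matrix. By the annotation of their products, 34 encode plastid ribosomal proteins and 8 encode mitochondrial ones. Another 218 ribosomal members, not set apart as organellar, were counted as genes of the cytosolic ribosome. The remaining 18 are not ribosomal genes. They are disease resistance genes such as *RPP1*, *RPS4* and *RPP8L4*, whose names stand for resistance to *Peronospora parasitica* or *Pseudomonas syringae*, and they are described apart from the others. By their symbols the 218 cytosolic genes fall into 78 families of one protein each, and 75 of these families have 2 or more gene copies.

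Whole seeds of 3 groups were compared, with 3 libraries of total RNA in each group. The first group was a line overexpressing *AtKAI2*, labelled AtKAI2OE, without treatment. The second was the same line on medium with 0.5 μM KAR2, a karrikin of smoke that acts through the receptor KAI2. The third was the accession Ara-1, labelled as wild type and untreated. All seeds were imbibed for 4 days at 4 °C in the dark and then kept for 24 h in the dark at room temperature, and were plated under weak light. The labels place the transgene in Col-0, and the study's methods describe a *35S* promoter in the *htl-3* (*kai2*) mutant. The study calls this promoter ubiquitously expressed, and in which cells of these seeds it was active was not measured here. Ara-1 differed from AtKAI2OE in both accession and transgene, which cannot be told apart.

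The cytosolic ribosome has a large subunit (RPL proteins), which forms peptide bonds, and a small subunit (RPS proteins), which reads the mRNA. The acidic RPP proteins form the stalk that recruits elongation factors, and the P3 type is found in plants. Dry seeds hold stored ribosomes and mRNAs, and new ribosomes are made as the embryo resumes growth. Most *Arabidopsis* ribosomal proteins are encoded by several paralogs, which differ in how much of the family's mRNA they supply. Many promoters of these genes carry the telo box and site II elements, the latter bound by TCP factors.

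The promoter regions of 4 members are shown because they span the behaviours described here: *RPS21B* and *RPS21C*, the pair whose shares of a family moved most, *RPL26B*, a minor paralog that rose, and *RPS9B*, the member with the highest level per transcript length. Each is the 250 bases before the annotated start of the gene in the RefSeq genome of build TAIR10.1, 5′ to 3′ on the strand of the gene, which is the minus strand in each case. Capitals mark a telo box (AAACCCTA) or a site II element (TGGGCC or TGGGCT) on either strand.
RPS21B, chr3:19956450-19956699: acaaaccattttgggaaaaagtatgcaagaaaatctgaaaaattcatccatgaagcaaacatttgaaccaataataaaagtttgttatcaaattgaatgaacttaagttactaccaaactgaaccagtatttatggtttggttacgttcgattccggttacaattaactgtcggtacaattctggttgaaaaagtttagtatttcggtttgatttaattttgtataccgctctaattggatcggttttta
RPS21C, chr5:9808514-9808763: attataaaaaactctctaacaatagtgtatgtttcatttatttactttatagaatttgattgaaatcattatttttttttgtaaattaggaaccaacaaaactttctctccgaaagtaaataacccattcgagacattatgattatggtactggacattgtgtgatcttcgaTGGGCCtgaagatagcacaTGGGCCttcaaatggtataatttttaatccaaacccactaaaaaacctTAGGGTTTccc
RPL26B, chr5:26938499-26938748: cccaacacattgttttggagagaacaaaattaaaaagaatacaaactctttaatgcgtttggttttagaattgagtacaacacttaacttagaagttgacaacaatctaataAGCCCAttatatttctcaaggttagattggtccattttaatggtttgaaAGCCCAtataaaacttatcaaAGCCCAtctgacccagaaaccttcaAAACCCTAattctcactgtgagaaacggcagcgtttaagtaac
RPS9B, chr5:4936430-4936679: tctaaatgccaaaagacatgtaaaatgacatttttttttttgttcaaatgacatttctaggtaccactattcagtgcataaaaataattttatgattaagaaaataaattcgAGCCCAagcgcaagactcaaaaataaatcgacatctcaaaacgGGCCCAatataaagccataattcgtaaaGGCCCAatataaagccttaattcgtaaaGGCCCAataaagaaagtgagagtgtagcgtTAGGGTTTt
The window of *RPS21B* runs into the neighbouring gene AT3G53900 and holds none of the letters searched. Those of *RPS21C* and *RPL26B* each hold 1 telo box, with 2 and 3 site II elements. Over all 218 cytosolic members, 22.5% had a telo box in this window, against 4.49% of the windows of 27443 protein-coding genes, and 68.8% had a site II element, against 19.2%. Both kinds were present in 17.9% of cytosolic members and in 1.36% of all genes. Of the plastid members 14.7% had a telo box and 38.2% a site II element, and of the 8 mitochondrial members 0 and 2 did. These are matches of letters, and TGGGCC can match on both strands over some of the same bases.

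Gene counts per library ranged from 17479888 to 33306518, and entries of the matrix with no gene name, which were left out, held from 13.4% to 35.1% of a library. Before the results, 2 libraries stood apart. Untreated AtKAI2OE replicate 2 had the lowest share of ribosomal protein counts, and Ara-1 replicate 1 had the fewest gene counts and the largest unnamed share. *KAI2* itself was at 129 to 217 CPM (gene counts scaled to library size) in untreated AtKAI2OE, 568 to 604 after KAR2 and 7.84 to 9.77 in Ara-1. The storage and late embryogenesis markers of the embryo (*CRA1*, *SESA3*, *OLEO1*, *EM1*, *EM6*) summed to between 88210 and 110450 CPM in untreated AtKAI2OE, 11086 to 11824 after KAR2 and 307 to 485 in Ara-1. All 5 fell in each comparison of the order untreated AtKAI2OE, KAR2, Ara-1. The endosperm markers *EPR1*, *ZOU* and *MAN7* summed to 1320 to 3498, 761 to 936 and 138 to 217 CPM in the same order, with *ZOU* at 0. Of the 2 tested, 1 was lower in each comparison, so the sum does not stand for both. The other did not pass, with log2 fold changes of 0.46 after KAR2, and in Ara-1 0.87 against untreated and 0.38 against KAR2-treated AtKAI2OE. The seed coat markers summed to under 29 CPM in every library, with *BAN* and *TT10* at 0 and *MUM4* higher in each comparison. The part of these shifts in the results was not tested. In whole seeds, fewer cells of a type and less RNA per cell cannot be told apart.

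Cytosolic ribosomal protein genes took up a larger share of the transcriptome after KAR2, and a larger one again in Ara-1. In untreated AtKAI2OE they held 9.04%, 4.89% and 7.76% of gene counts. After KAR2 they held 15.05%, 14.7% and 13.99%, and in Ara-1 16.7%, 20.7% and 22.9%. The means were 7.23% ± 2.13, 14.6% ± 0.541 and 20.1% ± 3.11 (SD, n = 3). No library of a group overlapped with one of another group, and the spread was smallest after KAR2. A share depends on the other genes too: the 10 most abundant genes held 18.3% to 23.7% of counts in untreated AtKAI2OE, 8.41% to 9.92% after KAR2 and 7.67% to 14.1% in Ara-1. Plastid members rose in share in the same order, with means of 0.245% ± 0.0520, 0.480% ± 0.00980 and 0.556% ± 0.0665 (SD, n = 3), but the KAR2 and Ara-1 libraries overlapped. Mitochondrial members held 0.0194% ± 0.00373, 0.0425% ± 0.00150 and 0.0501% ± 0.00642 (SD, n = 3), again with overlap between KAR2 and Ara-1.

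**Figure D1:**
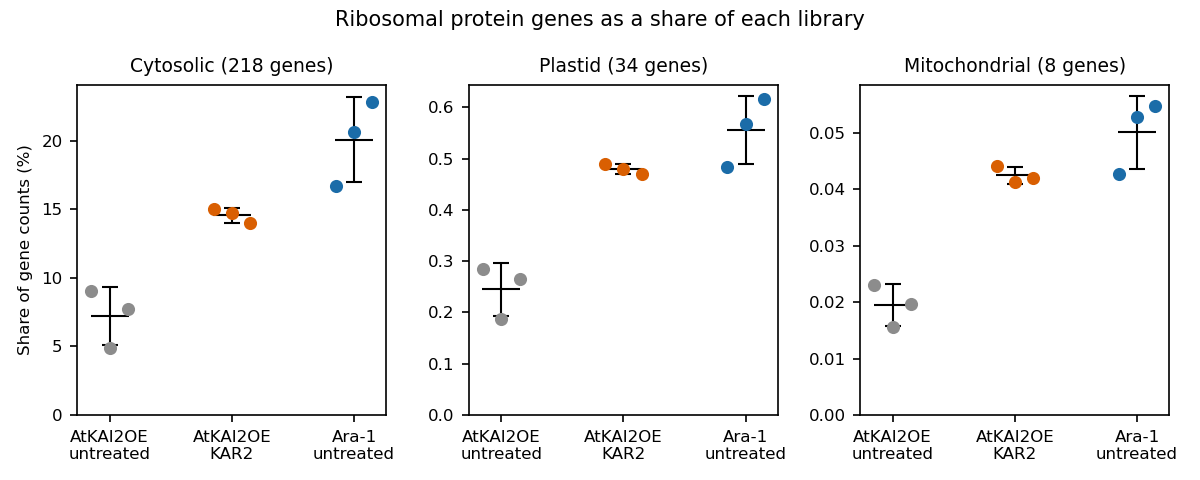
Share of gene counts (%) held by cytosolic, plastid and mitochondrial ribosomal protein genes in each library. Points are libraries in the order of their replicate numbers, and lines with bars are means ± SD (n = 3). The cytosolic share was 4.89% to 9.04% in untreated AtKAI2OE, 13.99% to 15.05% after KAR2 and 16.7% to 22.9% in Ara-1.

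The level of a gene below is its CPM after scaling by TMM over all 9 libraries, and a fold change is on the log2 scale from the edgeR fit of the 2 groups compared, with its SE. A gene passed where the adjusted p of edgeR's quasi-likelihood test was under 0.05 over all genes tested. Of the 218 cytosolic members, 8 had no count in any library: *RPL27AA*, *RPS15AC*, *RPL37AB*, *RPL13C*, *RPL8B*, *RPS15B*, *RPS15C* and *RPS15E*. Another 3, *RPL30A*, *RPS15F* and *RPP2E*, had 20 counts or fewer in all libraries together. The filter on low counts left 205 cytosolic members in the comparison of KAR2 with untreated AtKAI2OE.

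KAR2 raised the mRNA of cytosolic ribosomal protein genes broadly. After KAR2, 114 of the 205 tested were higher and 2 were lower, where 29.8% of all 17226 genes tested were higher and 24% were lower. Of the 89 that did not pass, 76 had a fold change above 0. The median fold change was 0.79 over the cytosolic members and 0.06 over all genes. In 148 members every KAR2 library was above every untreated one, against 37.4% of all genes. Large subunit genes (61 of 107 higher, 1 lower), small subunit genes (48 of 87 higher, 1 lower) and stalk genes (5 of 11 higher) had medians of 0.79, 0.84 and 0.53. Leaving out KAR2 replicate 2 gave 76 genes higher, the lowest count over the libraries, and without untreated replicate 2 there were 123 higher and 9 lower, with a median of 0.55. Scaling by library size alone moved the median of all genes to 0.46 and that of the members to 1.21, a distance of 0.75 in place of 0.73.

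**Figure D2:**
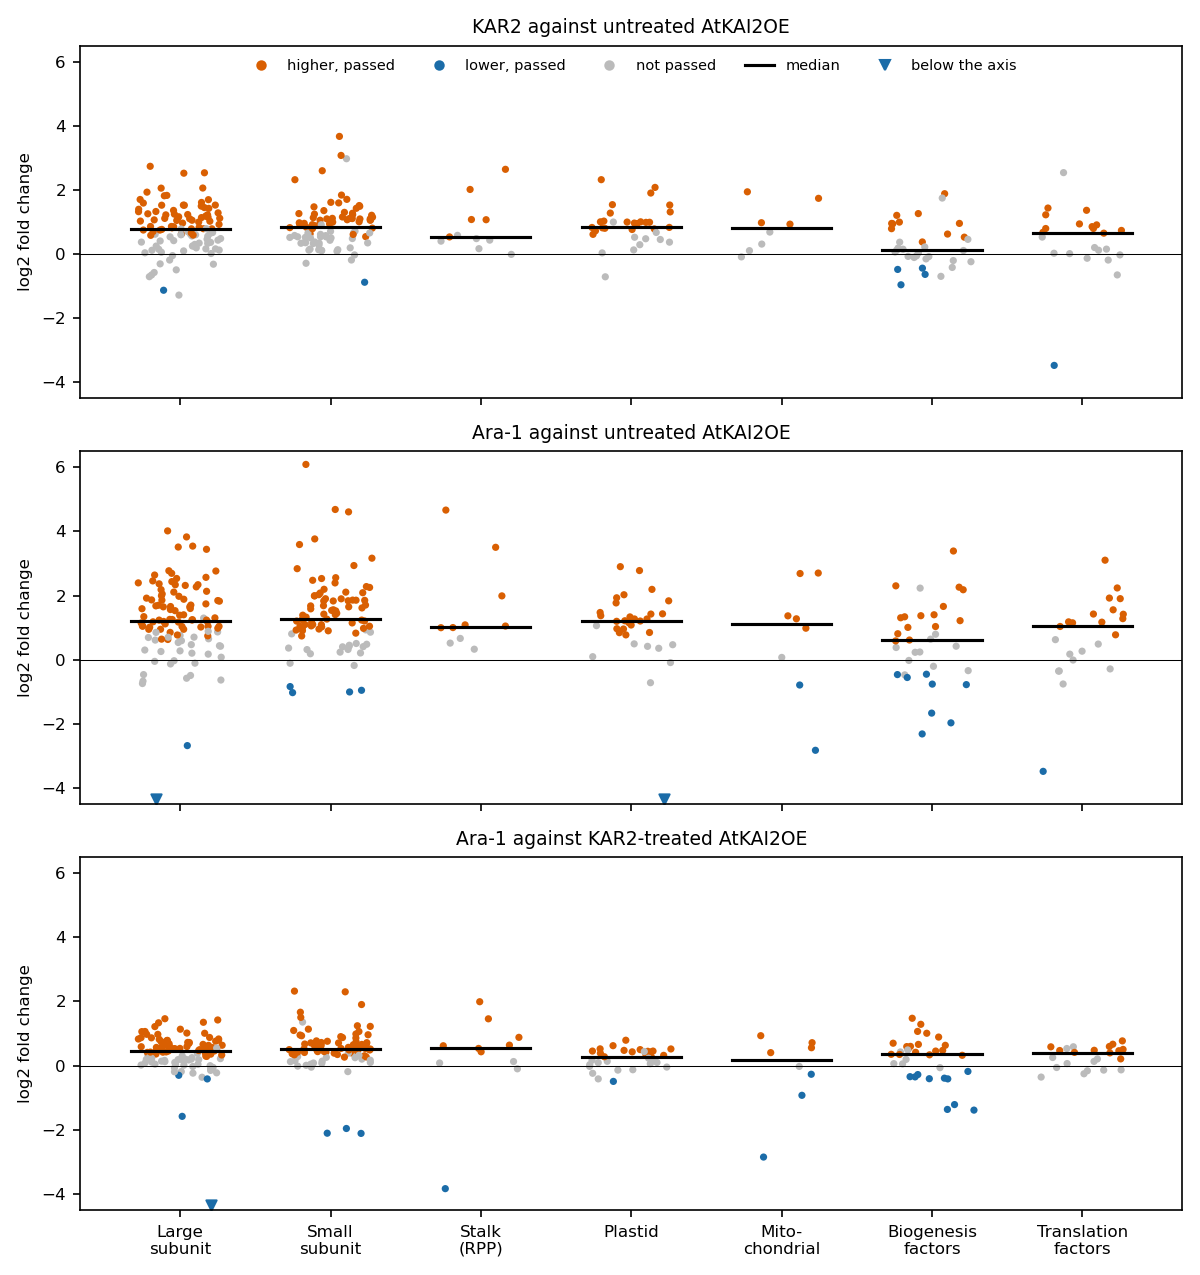
Log2 fold change (y axis) of each gene tested, by ribosomal group, ribosome biogenesis factors and translation factors, in the 3 comparisons. Orange points were higher and blue ones lower (edgeR, adjusted p under 0.05), grey ones did not pass, black lines are medians and triangles are genes below the axis. In the comparison of KAR2 with untreated AtKAI2OE 114 cytosolic genes were higher and 2 were lower.

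The largest increases were in paralogs that supplied little of their family's mRNA. *RPS11B* (AT4G30800), a small subunit gene, was at 4.57, 3.09 and 5.34 CPM in untreated AtKAI2OE and at 37.5, 35.7 and 37.5 after KAR2, a fold change of 3.07 ± 0.20 (SE; adjusted p = 4.97e-05, edgeR). *RPP3A* (AT4G25890), a gene for the P3 stalk protein, was at 9.20, 4.82 and 5.86 CPM and then at 44.6, 41.3 and 39.9, a fold change of 2.64 ± 0.26 (adjusted p = 2.09e-04). *RPS21B* (AT3G53890) was at 60.7, 40.9 and 73.4 CPM and then at 384, 347 and 343, a fold change of 2.60 ± 0.22 (adjusted p = 1.13e-04). In each of these the KAR2 libraries lay close together, and far above every untreated one. *RPL26B* (AT5G67510), a large subunit gene, was at 26.4, 13.8 and 22.0 CPM and then at 131, 117 and 115, a fold change of 2.52 ± 0.25. *RPL9D* and *RPL37C* rose by 2.06 ± 0.27 and 2.05 ± 0.24. These genes are among the 8 members with the largest increases at an average level of at least 4 on the log2 CPM scale. Of less abundant members, *RPL35AA* rose by 2.74 ± 0.38 and *RPP0A* by 2.01 ± 0.22. *RPS8B* had a value of 3.67 ± 1.17, from 1 library above 0 in the untreated group. It could pass the filter on low counts only through the KAR2 libraries, so its value is not taken as support.

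**Figure D3:**
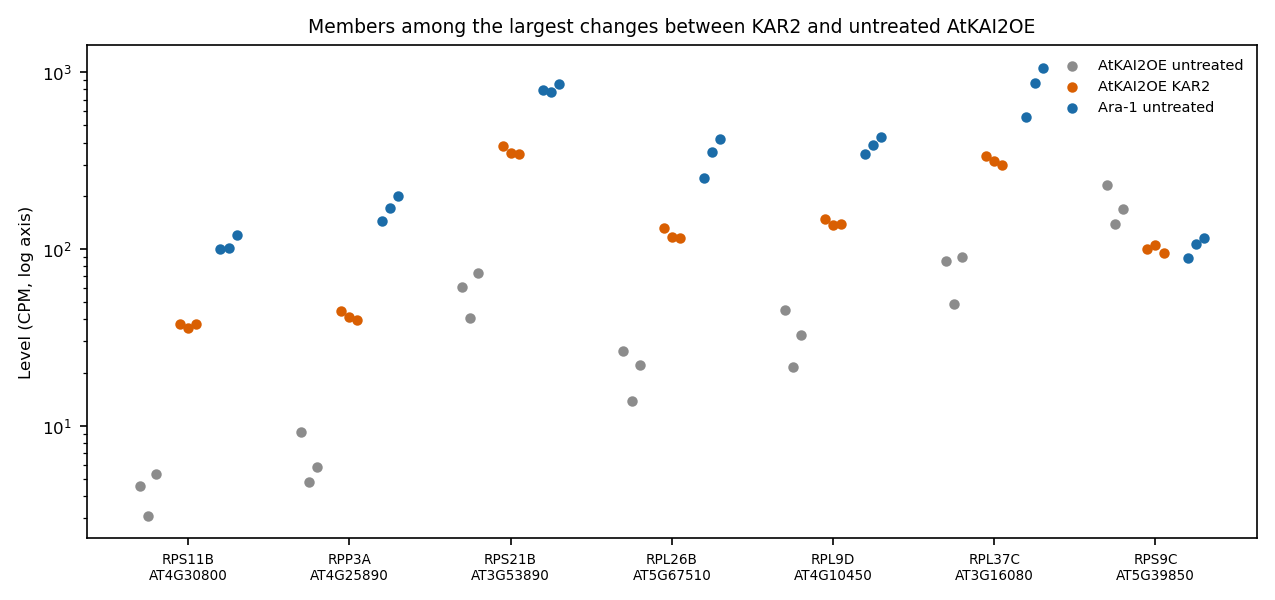
Level (CPM, log axis) in each library of members among the largest changes between KAR2 and untreated AtKAI2OE. Grey points are untreated AtKAI2OE, orange ones KAR2 and blue ones Ara-1. In the genes that rose, all Ara-1 libraries lie above all KAR2 libraries; in *RPS9C*, which fell, they lie at 88.4 to 115 CPM and overlap with KAR2.

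The members with the highest levels per transcript length moved less. Over all libraries these were *RPS9B*, *RPL19A*, *RPS8A*, *RPP0B* and *RPL10A*, at 2964, 2935, 2480, 2473 and 2328 CPM per kilobase. Of these *RPS8A* rose by 1.06 ± 0.27 (adjusted p = 0.0133, edgeR). *RPP0B*, which encodes the base of the stalk, was at 3915, 1848 and 3716 CPM in untreated AtKAI2OE and 3610, 3945 and 3295 after KAR2, so that the groups overlapped (0.17 ± 0.30, adjusted p = 0.663). *RPS9B*, *RPL19A* and *RPL10A* had values of 0.54 ± 0.32, 0.61 ± 0.28 and 0.56 ± 0.27 and did not pass. Untreated replicate 2 was the lowest untreated library in all 5.

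Of the 2 cytosolic members that fell, *RPS9C* (AT5G39850) was at 231, 139 and 169 CPM in untreated AtKAI2OE, at 100, 106 and 94.9 after KAR2 and at 88.4, 107 and 115 in Ara-1. It fell by 0.88 ± 0.21 after KAR2 (adjusted p = 0.0108, edgeR), and its share of the *RPS9* mRNA went from 7.07% to 11.5% in untreated libraries to 3.37% to 3.50%.

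Paralogs of a family could change differently, and the mix of a family's mRNA then shifted. Shares were taken per transcript length in each library, for the 215 paralogs of the 75 families with several genes. With 3 libraries against 3 an exact permutation test (two-sided) cannot give a p under 0.1, so shares are described by whether the groups overlap. Between untreated and KAR2-treated AtKAI2OE, 87 of the 215 paralogs gained and 67 lost share with no overlap of libraries. The levels of 37.4% of all genes were higher and of 27.8% lower with no overlap. Both counts lie near these shares of all genes, and a level is another measure than a share of a family. Shares in a family sum to a fixed total, so a gain in one paralog implies a loss in another. In 27 families the largest shift was at least 10 percentage points. *RPS21* shifted most in the gain of a paralog. *RPS21B* supplied 6.46%, 12.3% and 12.8% of the family in untreated AtKAI2OE, 43.2%, 40.3% and 41.2% after KAR2 and 60.1%, 60.5% and 60.1% in Ara-1. Its partner *RPS21C*, whose promoter region holds the telo box and site II elements shown above, was at 880, 293 and 500 CPM untreated and 506, 515 and 491 after KAR2, with no call (−0.18 ± 0.38, adjusted p = 0.704).

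Other families behaved in the same manner. In the P3 stalk family *RPP3A* went from 1.27% to 1.79% in untreated libraries to 7.68% to 8.22% after KAR2 and 17.8% to 18.5% in Ara-1. The major gene *RPP3B* had a fold change of −0.01 ± 0.34 after KAR2. In *RPL26*, *RPL26B* went from 1.63% to 2.60% through 9.08% to 9.85% to 21.3% to 29.4%. In *RPL9*, *RPL9D* went from 0.803% to 0.970% through 5.04% to 5.97% to 12.3% to 14.5%, while the pair of genes both named *RPL9B* (AT1G33120 and AT1G33140) had values of −0.49 ± 0.34 and −0.70 ± 0.35 that did not pass. These *RPL9B* copies share much of their sequence, with 47.9% and 44.0% of the 75-base stretches of their transcripts found in no other place, so their split is uncertain. In each of these families and in *RPS21* the minor paralog gained share in each step of the order untreated, KAR2, Ara-1, without overlap.

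**Figure D4:**
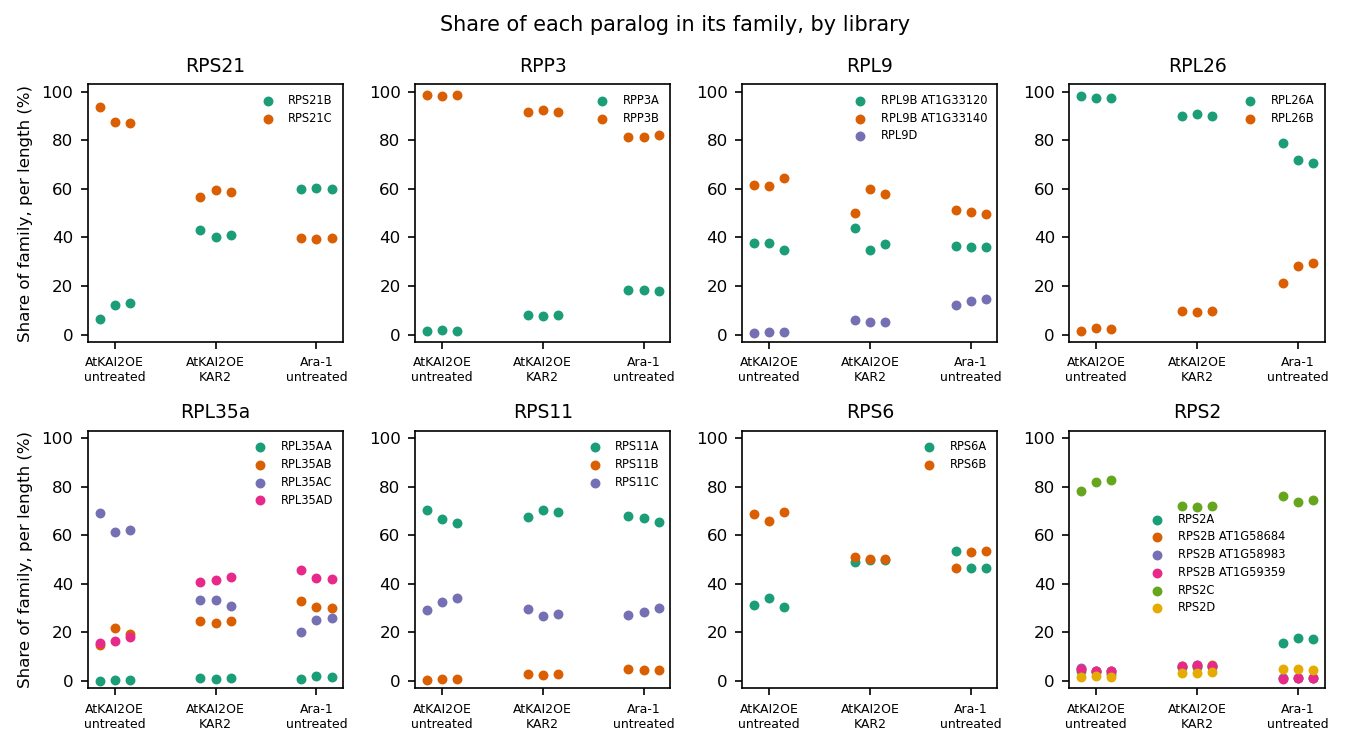
Share of each paralog in its family (%), from counts per transcript length, for 8 families; points are libraries, 3 in each group. *RPS21B* lies at 6.46% to 12.8% in untreated AtKAI2OE, 40.3% to 43.2% after KAR2 and 60.1% to 60.5% in Ara-1; the *RPL9* and *RPS2* panels hold genes whose reads cannot be fully told apart.

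In *RPL35a* the leading gene changed. *RPL35AC* supplied 69.2%, 61.6% and 62.2% of the family in untreated AtKAI2OE and 33.2%, 33.3% and 31.0% after KAR2, while *RPL35AD* went from 15.7%, 16.3% and 17.97% to 41.0%, 41.8% and 43.1%. *RPL35AD* rose by 1.70 ± 0.28 (adjusted p = 0.0019, edgeR) and *RPL35AB* by 0.82 ± 0.18, and *RPL35AC* did not pass (−0.65 ± 0.33). The paralog with the largest mean share differed between untreated and KAR2-treated AtKAI2OE in 9 of 75 families, and in 7 of these its order with the former leader held in all 6 libraries. These 7 were *RPL18*, *RPL22*, *RPL35a*, *RPL6*, *RPS14*, *RPS15a* and *RPS27*. In *RPL22*, *RPL22B* went from 43.3% to 48.4% of the family in untreated libraries to 60.1% to 62.1% after KAR2, and *RPL22C* made up the rest. In *RPS27*, *RPS27D* went from 34.1% to 54.6% and *RPS27B* from 59.6% to 41.4%. In Ara-1 the paralog with the largest mean share differed from that of untreated AtKAI2OE in 16 families. In 13 of these its order with the former leader held in all 6 libraries. *RPS21*, *RPS13*, *RPS3a*, *RPL4*, *RPL7a* and *RPS4* were among those 13. For *RPS4* this is the order of *RPS4D* and *RPS4A* only, and it leaves out *RPS4B*, described below.

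Shares also shifted in families whose genes were all well expressed. *RPS3AA* was at 527, 235 and 419 CPM in untreated AtKAI2OE and 1242, 1242 and 1159 after KAR2, a rise of 1.59 ± 0.30 (adjusted p = 0.00364, edgeR), while *RPS3AB* was at 1475, 930 and 1604 and then 1517, 1525 and 1355 (0.11 ± 0.22, not passed). *RPS3AA* supplied 20.8% to 27.1% of the family in untreated libraries, 45.9% to 47.1% after KAR2 and 55.6% to 57.2% in Ara-1. *RPS13A* supplied 19.6% to 26.03%, 38.8% to 40.02% and 50.2% to 52.4% in the same order, and rose by 1.26 ± 0.24 after KAR2, where *RPS13B* had 0.11 ± 0.33. *RPL6A* rose by 1.52 ± 0.16 and *RPL4D* by 1.36 ± 0.27, and their partners *RPL6B* and *RPL4A* did not pass. Across the families, the median share of the leading paralog was 71.4% in untreated AtKAI2OE, 63.7% after KAR2 and 62.5% in Ara-1. Between untreated AtKAI2OE and Ara-1, 85 paralogs gained and 79 lost share with no overlap, where the levels of 42.3% and 32.9% of all genes were higher and lower with no overlap. Between KAR2 and Ara-1 the numbers were 72 and 74, with 35.4% and 34.3% of all genes. Out of 215 paralogs, these counts too lie near the shares of all genes.

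*RPS4B* (AT5G07090) cannot be read as a difference between groups. It was at 1116, 610 and 104 CPM in untreated AtKAI2OE, 143, 1806 and 156 after KAR2 and 244, 2122 and 202 in Ara-1. Within every group its share of the *RPS4* mRNA ranged over more than 30 percentage points, although all of its 75-base stretches are unique, and its SE was 1.16 after KAR2. *RPS27AA* switched between 0 and over 100 counts within Ara-1 in the same way, at 5.48, 0 and 7.30 CPM. Most members were free of shared sequence: 186 of the 218 cytosolic genes had unique 75-base stretches only, 7 had under 50% and 3, the *RPS2B* genes, had none, and pairs of paralogs had a median identity of 83.5% in coding sequence.

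The genes for RPS6, the small subunit protein phosphorylated by S6 kinase downstream of TOR, also drew together. *RPS6A* was at 495, 292 and 470 CPM in untreated AtKAI2OE and 1439, 1418 and 1319 after KAR2, a rise of 1.71 ± 0.23 (adjusted p = 8.14e-04, edgeR). *RPS6B* was at 1112, 571 and 1099 CPM and then 1526, 1460 and 1350, which did not pass (0.61 ± 0.27, adjusted p = 0.0917). The share of *RPS6A* went from 30.4% to 34.3% in untreated libraries to 49.0% to 49.9% after KAR2 and lay between 46.5% and 53.5% in Ara-1.

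In a family of several tested genes the least abundant paralog more often had the larger fold change. To keep the ranking apart from the comparison, paralogs were ranked by their level per length in Ara-1, which the comparison of KAR2 with untreated AtKAI2OE does not use. In 45 of 74 families the least abundant paralog had the larger fold change. The median was 0.95 for the least abundant and 0.64 for the most abundant paralogs, of which 46 and 34 of 74 were higher. *RPS21* is among the exceptions, since *RPS21B* leads in Ara-1. The filter on low counts used the libraries compared. A paralog near the floor, such as *RPS8B*, could therefore enter only through the group where it was high, which raises its fold change. The part of this in the order was not tested, and no test was run on the order itself.

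**Figure D5:**
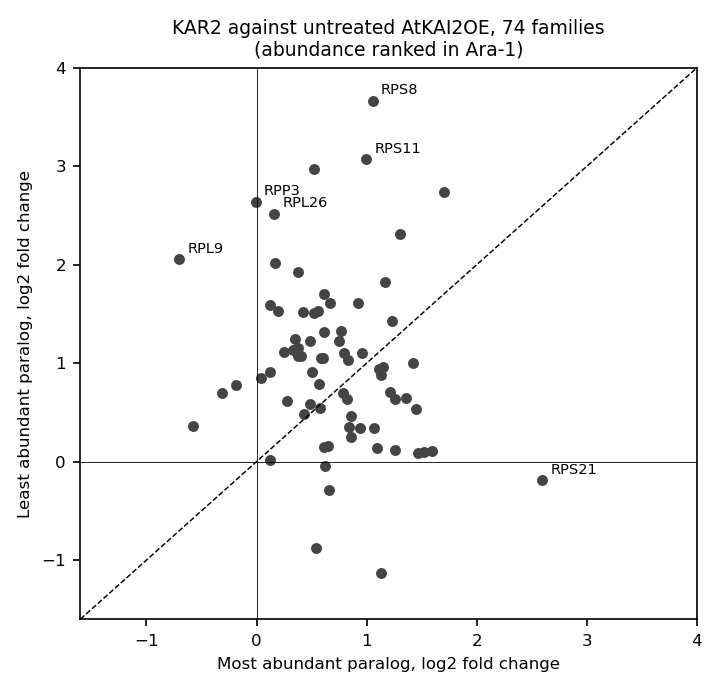
Log2 fold change after KAR2 of the most abundant (x axis) and the least abundant (y axis) paralog in 74 families, ranked by level per length in Ara-1. The dashed line marks equal change. In 45 families the point lies above it; *RPS21* lies far below, with *RPS21B* on the x axis.

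*RPL10* ranked among the 6 families with the largest differences between paralogs, but with overlapping groups in the gene that had the lowest value. *RPL10C* was at 671, 40.4 and 97.2 CPM in untreated AtKAI2OE and 114, 138 and 97.7 after KAR2. Replicate 1 alone was high, the groups overlapped, and the gene did not pass (−1.28 ± 0.93). *RPL10B* was at 13.5, 9.20 and 13.7 CPM and then 35.9, 34.7 and 35.8, a rise of 1.53 ± 0.17.

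Genes for the organelle ribosomes were counted in the same way. Of the 33 plastid members tested 23 were higher after KAR2 and 0 lower by edgeR, with a median of 0.83, where 29.8% of all genes were higher and 24% lower. *RPL12A* (AT3G27830), for the plastid stalk, was at 15.4, 8.51 and 13.3 CPM in untreated AtKAI2OE and 68.0, 60.6 and 59.7 after KAR2, a rise of 2.32 ± 0.23 (adjusted p = 2.16e-04). *RPL11*, *RPL6*, *RPL9* and *RPS1* of the plastid rose by 2.08 ± 0.10, 1.90 ± 0.17, 1.54 ± 0.19 and 1.53 ± 0.14. Of the 8 mitochondrial members 4 were higher: *RPS10* (AT3G22300) by 1.94 ± 0.20, *RPS13* by 1.74 ± 0.26, *RPL21M* by 0.98 ± 0.11 and *RPS9M* by 0.93 ± 0.12. Counts that switched between 0 and at least 100 within a group, occurred in 41 genes of the KAR2 group, 141 of untreated AtKAI2OE and 85 of Ara-1.

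Genes that work with the ribosome were taken from lists of known factors. Of 8 ribosomal proteins under other symbols, 5 were higher after KAR2 and 0 lower by edgeR. The scaffold proteins *RACK1B* and *RACK1C*, at the head of the small subunit, showed the pattern of minor paralogs. *RACK1B* went from 69.4, 42.4 and 69.8 CPM to 316, 320 and 314 and *RACK1C* from 22.4, 15.5 and 26.5 to 150, 151 and 153, with fold changes of 2.36 ± 0.21 and 2.80 ± 0.20. The major *RACK1A* was at 1688, 1002 and 1963 and then 2524, 2764 and 2304 CPM and did not pass (0.68 ± 0.26, adjusted p = 0.0591). *RPSAB*, of the small subunit protein SA, rose by 2.02 ± 0.13, and its partner *P40* had 0.16 ± 0.27. Of the translation factors 11 of 23 were higher and 1 lower, where 29.8% and 24% of all genes were. All 4 *EEF1A* genes for the elongation factor that delivers tRNA rose, by 0.80 to 1.43. Unique stretches were computed for members only, so whether reads of these 4 genes can be told apart is not known.

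Of the ribosome biogenesis factors, which process rRNA and assemble subunits, 11 of 34 were higher and 4 lower after KAR2, with a median of 0.14. The share that was higher was near the 29.8% of all genes, and 24% of all genes were lower. *FIB2*, for the rRNA methyltransferase fibrillarin, rose by 1.88 ± 0.21, *ENP1* by 1.26 ± 0.14 and *SWA1*, for rRNA processing in the nucleolus, by 1.21 ± 0.18. *REIL1*, for late maturation of the large subunit, fell by 0.96 ± 0.16. Of the 9 genes of the TOR pathway and its regulators 1 was higher and 3 lower, where 29.8% and 24% of all genes were. *S6K1* rose by 0.59 ± 0.17, and *S6K2*, *MRF1* and *TOR* fell by 1.79 ± 0.24, 1.49 ± 0.14 and 0.86 ± 0.27. *TCP20*, a factor that binds site II elements, had −0.34 ± 0.16 and did not pass. The calls can be set beside the promoter letters: 57.1% of 42 tested members with a telo box were higher, against 55.2% of 163 without, and 51.4% of 142 with a site II element against 65.1% of 63 without. These shares were not tested.

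Ara-1 had still higher levels. Against untreated AtKAI2OE, 148 of 204 cytosolic members tested were higher and 6 lower, where 37.9% and 31.8% of all genes were, and the median was 1.22 against 0.16 for all genes. Against KAR2-treated AtKAI2OE, 136 of 206 were higher and 8 lower, where 30.1% and 32.2% of all genes were, with medians of 0.49 and −0.01. These comparisons share the untreated or the KAR2 libraries with the first one. The mean levels ran untreated, KAR2, Ara-1 from low to high in 176 of the 204 members tested in all comparisons, and in 118 of them (57.8%) no library overlapped with one of another group, as was so for 22.9% of all genes. Without Ara-1 replicate 1 the members higher numbered 138 and 151 in the 2 comparisons. The number lower than untreated AtKAI2OE went from 6 to 3 without Ara-1 replicate 1 or replicate 2 and to 11 without untreated replicate 2, which left 143 higher.

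The minor paralogs that led after KAR2 were also high in Ara-1. The untreated libraries in both comparisons are the same, so this is no independent repeat. Against untreated AtKAI2OE *RPP3A* was higher by 4.67 ± 0.32, *RPS11B* by 4.61 ± 0.24, *RPL26B* by 4.02 ± 0.34 and *RPS21B* by 3.77 ± 0.26. *RPP0A*, a minor gene of the stalk base, was at 58.1, 68.4 and 73.5 CPM in Ara-1 and at 7.01, 4.06 and 6.28 in untreated AtKAI2OE, a difference of 3.51 ± 0.25. *RPS16B* stood out against KAR2-treated AtKAI2OE: it was at 126, 130 and 161 CPM in Ara-1, 27.2, 30.5 and 23.5 after KAR2 and 27.9, 10.6 and 18.4 untreated. It was higher by 2.32 ± 0.13 (adjusted p = 5.57e-06, edgeR), and its KAR2 and untreated libraries overlapped. *RACK1B* and *RACK1C* were higher in Ara-1 than in untreated AtKAI2OE by 4.13 ± 0.26 and 4.36 ± 0.25. Among the 8 members lower in Ara-1 than after KAR2 were the 3 *RPS2B* genes and *RPL32B*, described below, *RPL26A*, the major gene beside *RPL26B* (−0.30 ± 0.09, adjusted p = 0.0241), and *RPP2C*, at no more than 1.52 CPM in any library. The same *RPS2B* genes, *RPL32B* and *RPS9C* were among the 6 lower than in untreated AtKAI2OE.

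A few members had no counts in Ara-1. *RPL32B* (AT5G46430, chr5:18833240-18834632) was at 222, 93.3 and 138 CPM in untreated AtKAI2OE, 188, 202 and 81.0 after KAR2 and at 0 in each Ara-1 library. With 8610 counts in untreated AtKAI2OE and 0 in Ara-1 it was at least 4202-fold lower, taking a floor of 3 counts over the group, and at least 4622-fold lower than after KAR2. Its partner *RPL32A* was at 1358, 1888 and 2380 CPM in Ara-1, and supplied 100% of the family there and 85.5% to 93.2% after KAR2. Of all genes, 37 had at least 100 counts in every untreated AtKAI2OE library and 0 in Ara-1. *RPL22A*, by contrast, had 50 counts in Ara-1 and 0 in both AtKAI2OE groups, at least 11.4-fold and 15.6-fold higher. Reads of Ara-1 were aligned to the reference genome, which is that of Col-0, and the part of this in the zeros was not tested.

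The *RPS2* family also split in Ara-1. *RPS2A* (AT1G58380) was at 668, 738 and 880 CPM in Ara-1, 199, 210 and 187 after KAR2 and 106, 53.4 and 89.9 untreated, higher than after KAR2 by 1.90 ± 0.12. The 3 genes named *RPS2B* (AT1G58684, AT1G58983 and AT1G59359) lay at 43.9 to 62.96 CPM in Ara-1, 186 to 252 after KAR2 and 57.2 to 133 untreated, and were lower in Ara-1 than after KAR2 by log2 fold changes of −2.11, −1.96 and −2.11. All 4 lie on chromosome 1 within chr1:21688935-21843819. The 3 *RPS2B* genes have identical coding sequences, and none of their 75-base stretches is unique. Only uniquely aligned reads were kept by the study's methods, and how reads came to be counted for these copies is not stated, so their levels and differences are uncertain. *RPS2A* has 82.0% unique stretches, but its coding sequence is 97.5% identical to that of each *RPS2B* gene. Reads of Ara-1 were aligned to the Col-0 genome here too, so the level of *RPS2A* in Ara-1 is also uncertain. Whether reads moved between these copies was not tested. The major gene *RPS2C* supplied 71.7% to 83.0% of the family in every library.

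Of 33 plastid members tested, 24 were higher and 1 was lower than in untreated AtKAI2OE, and of 32 tested 16 were higher and 1, *RPL27* (−0.49), lower than after KAR2. The shares of all genes in these comparisons were 37.9% higher and 31.8% lower, and 30.1% and 32.2%. Of the 8 mitochondrial members 5 were higher and 2 lower than untreated, and 4 higher and 3 lower than after KAR2. *RPS14* (AT2G34520) was at 36.9, 35.2 and 37.5 CPM in Ara-1 and 70.4, 71.6 and 60.9 after KAR2, a difference of −0.93 ± 0.09. *RPS7* (AT2G07696), at under 1.7 CPM in every library, was lower too, and none of its 75-base stretches is unique in the genome.

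The lists can be read against all genes, of which 37.9% were higher and 31.8% lower in Ara-1 than in untreated AtKAI2OE, and 30.1% and 32.2% than after KAR2. Translation factors were higher in 13 of 23 cases than untreated AtKAI2OE and lower in 1, and higher in 11 and lower in 0 than after KAR2. Biogenesis factors were higher in 15 of 34 and lower in 8, and higher in 18 and lower in 10. *FIB2* reached 1058, 1001 and 1106 CPM in Ara-1 from 108, 70.0 and 118 in untreated AtKAI2OE, while its paralog *FIB1* was at 530, 536 and 591 CPM from 1088, 639 and 1045 (−0.77 ± 0.25, adjusted p = 0.0248). Of the TOR pathway genes 8 of 9 were lower in Ara-1 than in untreated AtKAI2OE and *S6K1* was higher, by 1.27 ± 0.17. *S6K2* was at 13.0, 23.4 and 16.1 CPM untreated, 5.75, 4.47 and 5.21 after KAR2 and 1.92, 1.82 and 1.59 in Ara-1. Of the 8 ribosomal proteins under other symbols 7 were higher than untreated AtKAI2OE and 5 higher and 1, *ARP2*, lower than after KAR2.

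Of the 18 disease resistance genes that share the symbols 12 were tested after KAR2. Of these 4 were lower (*RPP1*, *RPP13L4*, *RPP8L3* and *RPS4*), where 24% of all genes were. The 1 that was higher, where 29.8% of all genes were, was *RPP13*, at most at 3.69 CPM. In Ara-1, 6 of 12 were lower and 2 higher than in untreated AtKAI2OE, where 31.8% and 37.9% of all genes were. Against KAR2-treated AtKAI2OE 9 of 13 were lower and 1 higher, where 32.2% and 30.1% of all genes were. *RPS4*, a receptor for a bacterial effector, was at 9.20, 16.4 and 10.5 CPM in untreated AtKAI2OE, 4.20, 5.10 and 4.47 after KAR2 and 1.24, 1.90 and 1.22 in Ara-1. *RPP1* and *RPP8L3* had 0 counts in Ara-1, at least 1452-fold and 657.5-fold lower than untreated AtKAI2OE. *RPP8L4* was at 20.9, 24.98 and 19.3 CPM untreated and 1.07, 1.304 and 0.793 in Ara-1. Of the rest, *RPP13L4* was lower in Ara-1 than in both AtKAI2OE groups, *RPP5* likewise, *RPP4* was higher than in both (to at most 1.33 CPM) and *RPP8* was higher than in untreated AtKAI2OE. *RPP2A*, *RPP13* and *RPS4B* (AT5G45060) were lower in Ara-1 than after KAR2, and *RPS6* (AT5G46470) passed in no comparison. *RPP27* and *RPS2* (AT4G26090) had no counts, and *RPP8L2*, *RPP13L2* and *RPP13L3* were too low to test. Unique 75-base stretches made up 63.7% in *RPP5*, 64.7% in *RPP1*, 82.8% in *RPP4*, 91.2% in *RPP8* and 91.4% in *RPP8L4*. Reads of Ara-1 were aligned to the Col-0 genome for these genes too. The part of both limits in the differences and zeros was not tested.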

How the data were processed

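Total RNA of whole seeds was read as stranded single-end libraries. The authors trimmed reads with htStream, aligned them with HISAT2 2.1.0 to TAIR10, kept uniquely aligned reads with SAMtools 1.10 and assembled transcripts with StringTie 2.1.3 on Araport11. The deposited counts are whole numbers for each gene derived from transcript coverage, without normalization. The sources used here do not give whether counting used strand. The authors' normalized files (DESeq2 1.18.1) were not used.

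The matrix has 37054 entries. Entries of one gene identifier were summed (47 members had 2), and 1105 unnamed entries were left out. Groups and the 3 replicates of each came from the labels. Nothing says what a shared replicate number means, so p-values measure the spread between these samples. Comparisons took the 6 libraries of their groups in R 4.3.3 with edgeR 4.0.16: filterByExpr (minimum count 10, total 15), TMM, quasi-likelihood test, Benjamini-Hochberg adjustment at 0.05 over all genes tested. The SE was obtained from the log2 fold change and the F statistic. Scripts were tested on simulated data. Counts of replicates always differed beyond sampling noise. Floors cover counting error only. Alternatives were RLE, library size, TMM without members, DESeq2 1.42.0, other filters, all 9 libraries, a replicate block, other entries, each library left out, and shares without length.

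Sequences, transcript lengths and positions came from RefSeq (TAIR10.1), whose nuclear coordinates are those of TAIR10, with Python 3 and Biopython. All 278 members were located. Uniqueness of reads was taken from all 75-base stretches of a transcript. Named were the disease resistance genes, the 8 cytosolic members with the largest called change in each direction at an average log2 CPM of 4 or more without overlap, the paralogs of the 6 families with the largest differences between paralogs at 2 or more, the 5 highest members per length, the 5 largest organelle changes and list genes. Other members, such as *RPS8B*, *RPL22A*, *RPS6A* and those whose shares changed leader, were named after their values were seen. Values of some members are not reported here, although counts over the members include them. The members and lists were chosen with earlier results of these data known.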

Additional observations from a re-analysis of the deposited data

How the results depend on the processing

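Directions of the 3 cytosolic medians held under every alternative run. Counts of higher members stayed within 1.5 times of the reported ones except with all 9 libraries in the fit, where 72 members in place of 136 were higher in Ara-1 than after KAR2; the cause was not tested. Scaling by library size only gave 1 lower member after KAR2 and 2 lower in Ara-1 against untreated AtKAI2OE, and a median after KAR2 of 1.21. It moved the median of all genes in that comparison from 0.06 to 0.46 and the higher share of all calls from 55.5% to 75.8%. In Ara-1 against untreated AtKAI2OE that share was 54.4% and 64.2%.

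Leaving out each library gave 76 to 138 members higher and 2 to 9 lower after KAR2, 117 to 160 and 3 to 11 in Ara-1 against untreated AtKAI2OE, and 102 to 151 and 7 to 12 in Ara-1 against KAR2. The medians ranged from 0.55 to 0.99, 0.94 to 1.38 and 0.37 to 0.59. With a replicate block 110, 144 and 108 members were higher and 2, 6 and 7 lower. Same-numbered libraries did not all deviate together, with correlations for numbers 1 to 3 of 0.05, −0.12 and −0.09 in the comparison of KAR2 with untreated AtKAI2OE, 0.03, 0.37 and 0.08 in that of Ara-1 with untreated AtKAI2OE and −0.09, −0.09 and −0.14 in that of Ara-1 with KAR2. In no comparison was every correlation over 0.1, so the numbers were not read as pairs.

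Without division by length the change in share after KAR2, in percentage points, was 0.59 for *RPL35AA*, −28.5 for *RPL35AC*, 23.0 for *RPL35AD*, 6.46 for *RPL9D*, 6.12 for *RPP3A* and −6.12 for *RPP3B*. Calls of the genes named by rule could be lost. The largest loss in Ara-1 against KAR2 came with all 9 libraries in the fit: 36 lost their call and 116 did not change. In Ara-1 against untreated AtKAI2OE it came without Ara-1 replicate 3, with 22 lost and 131 unchanged. After KAR2 it came without KAR2 replicate 1, with 17 lost and 131 unchanged. Of single genes, *PES* was at 0.35 after KAR2 with library size only. Leaving out the further entries of a gene turned *NOP5-2* in Ara-1 to −7.76 against untreated AtKAI2OE and −8.44 against KAR2, and *ARP1* to −0.38 against KAR2. A member at 0 in a group could still have had up to 3 counts, so its transcript was not detectable at this depth.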
